A study of Homo sapiens with 4 samples.

Results

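The mitochondrial ribosomal protein genes were taken as all genes in the RNA count tables whose symbol is MRPL or MRPS followed by a number, with or without a final A, B or C. The rule selected 78 of 33640 genes, of which 51 encode proteins of the large subunit and 26 proteins of the small subunit. MRPS36 carries the symbol but is now known as KGD4, a component of the 2-oxoglutarate dehydrogenase complex, and was placed in neither subunit. The rule itself uses no measured value, but it was set with earlier results of these data known.

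Transcripts were counted in 4 libraries from nuclei of H9, a line of human pluripotent stem cells in the primed state, grown in Essential8 medium in 5% O2 and fixed with 0.2% formaldehyde. In the 2 Pre libraries, reverse transcription (RT) of poly(A) RNA came before tagmentation with Tn5, the enzyme that inserts sequencing adapters into DNA. In the 2 Post libraries it came after. With either order there was an RNA-only library and a joint library, in which DNA carrying H3K27me3, a mark of Polycomb-repressed chromatin, and H3K27ac, a mark of active promoters and enhancers, was recovered as well as RNA. All 4 come from the same cell line, and the sources leave unsaid whether they share a culture or what tagmentation the RNA-only libraries received. The comparisons asked whether the order of RT and the profiling of DNA alter the transcriptome that is recovered. Each condition is 1 library, so no difference below has a replicate check and the differences are given by size, with no test within a pair.

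The mitochondrial ribosome, or mitoribosome, translates the few mRNAs that the mitochondrial genome encodes, all for subunits of the oxidative phosphorylation complexes. Its rRNAs are mitochondrial transcripts, whereas every one of its proteins is encoded in the nucleus, made in the cytosol and imported. Some of these proteins descend from bacterial ribosomal proteins, and others have no bacterial counterpart and surround the rRNA core. Here 30 large and 16 small subunit members were listed as having a bacterial counterpart, and 21 large and 10 small subunit members as having none.

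The members lie on 21 chromosomes, and their promoters were set side by side to see what they share. RefSeq windows on GRCh38.p14, from 250 bases before to 50 bases after the start of the gene, were found for 69 of the 78 members. The letters CCGGAAG, a core recognised by ETS factors, occurred on either strand in 29 of the 69 windows, or 42.0%. The share was 10.7% of all 27305 windows and 19.3% of the 8408 windows of genes averaging 10 RPM or more here (RPM, the counts of a gene per 1000000 counts of its library). The letters AAGATGGC, a core recognised by YY1, occurred on either strand in 20 windows, or 29.0%, against 3.03% of all windows and 6.04% of those of genes with at least 10 RPM. Altogether 41 member windows held one or both of these and 28 held neither. The last 3 letters of CCGGAAG are the first 3 of AAGATGGC, but in 0 member windows were they shared by both.

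Where the letters lay was recorded too. CCGGAAG was within the 100 bases before the start in 19 member windows (27.5%, against 5.95% of all windows and 11.2% of those of genes with at least 10 RPM). AAGATGGC lay on the strand of the gene within the 50 bases after the start in 15 (21.7%, against 1.39% and 3.63%). Both conditions were met in 3 members, MRPL20, MRPS10 and MRPS18A, whose windows are shown first to display that order. The windows of MRPL51, MRPS12 and MRPS34 follow, since the first 2 are among the members that differed most between libraries and the last has 3 copies of CCGGAAG. MRPS25 and MRPS6, which had neither set of letters in the whole window, are among the most abundant members and are shown for contrast. Each sequence is written 5′ to 3′ on the strand of the gene, from 120 bases before to 30 bases after the start, and capitals mark CCGGAAG or its reverse complement and AAGATGGC. The AAGATGGC of MRPS12 lies beyond the part shown.
MRPL20 (chr1:1407264-1407413, minus strand): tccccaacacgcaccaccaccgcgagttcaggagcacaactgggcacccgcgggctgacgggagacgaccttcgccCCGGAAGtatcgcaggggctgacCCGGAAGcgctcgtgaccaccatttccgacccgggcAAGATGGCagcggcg
MRPS10 (chr6:42217832-42217981, minus strand): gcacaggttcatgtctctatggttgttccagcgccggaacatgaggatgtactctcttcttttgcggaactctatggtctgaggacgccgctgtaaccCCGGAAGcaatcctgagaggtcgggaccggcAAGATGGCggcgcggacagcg
MRPS18A (chr6:43687762-43687911, minus strand): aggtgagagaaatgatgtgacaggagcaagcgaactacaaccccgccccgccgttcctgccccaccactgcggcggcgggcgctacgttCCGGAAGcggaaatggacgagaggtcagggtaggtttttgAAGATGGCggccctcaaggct
MRPL51 (chr12:6493233-6493382, minus strand): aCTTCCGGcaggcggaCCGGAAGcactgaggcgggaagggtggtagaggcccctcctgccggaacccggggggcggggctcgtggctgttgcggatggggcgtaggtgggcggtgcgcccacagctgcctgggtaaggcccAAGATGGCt
MRPS12 (chr19:38930824-38930973, plus strand): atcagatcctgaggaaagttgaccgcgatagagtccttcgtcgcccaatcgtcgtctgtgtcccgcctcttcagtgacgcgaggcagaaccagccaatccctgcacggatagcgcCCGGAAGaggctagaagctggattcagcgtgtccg
MRPS34 (chr16:1773105-1773254, minus strand): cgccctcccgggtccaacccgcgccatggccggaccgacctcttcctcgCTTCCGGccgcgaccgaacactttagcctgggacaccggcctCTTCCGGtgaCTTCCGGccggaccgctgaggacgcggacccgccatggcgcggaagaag
MRPS25 (chr3:15065286-15065435, minus strand): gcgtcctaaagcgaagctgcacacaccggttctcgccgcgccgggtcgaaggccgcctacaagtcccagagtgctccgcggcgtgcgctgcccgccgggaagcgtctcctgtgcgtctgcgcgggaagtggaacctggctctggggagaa
MRPS6 (chr21:34073458-34073607, plus strand): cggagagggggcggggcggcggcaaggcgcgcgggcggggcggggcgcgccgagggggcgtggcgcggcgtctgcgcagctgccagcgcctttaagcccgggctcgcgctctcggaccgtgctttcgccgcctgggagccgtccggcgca

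Of the other motifs searched on both strands, a ZNF143 core was in 6 member windows (8.70%, against 1.96% of all and 3.95% of those of genes with at least 10 RPM). The NRF1 palindrome was in 1 window, that of MRPL17 (1.45%, against 1.36% and 2.50%). TATAAA was in 2, those of MRPL54 and MRPS15 (2.90%, against 11.95% and 5.45%). The median GC content of the member windows was 60.3%, between that of all windows (58.3%) and that of windows of genes with at least 10 RPM (65.3%). A match is a description of the letters only, and no binding was measured here.

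The total counts were 9379073 for Pre RNA-only, 8960724 for Pre joint, 6368721 for Post RNA-only and 10089552 for Post joint. The 6 clone-named genes that begin with FP236383 or FP671120 took 34.8% of the Post RNA-only library and 10.7% to 15.8% of the others. Of 10 pluripotency markers, 10 had at least 10 RPM in every library, and they summed to 2181 to 3092 RPM. Another 15 markers, of endoderm, mesoderm, neural cells and fibroblasts, summed to 35.5 to 50.9 RPM. Of these 15, 1 had at least 10 RPM in Post RNA-only and 2 in each other library. Whether other cells contributed to a difference described here was not tested.

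All 78 members had counts in every library, with the lowest member at 14 to 22 counts and the highest at 832 to 1638. Together they took 0.196% of the counts in Pre RNA-only (exact 95% binomial interval 0.193 to 0.199) and 0.212% in Pre joint (0.209 to 0.215). They took 0.171% in Post RNA-only (0.168 to 0.175) and 0.178% in Post joint (0.175 to 0.181). All intervals here cover counting error only, and values differed beyond it between each library and the others. The share was lower in both Post libraries than in both Pre libraries. In such bulk counts fewer nuclei of a kind and less RNA per nucleus cannot be told apart. Without the 6 clone-named genes in the total, the order changed: Post RNA-only had the highest share, 0.263%, and Post joint the lowest, 0.211%, with the Pre libraries at 0.224% and 0.238%.

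**Figure D1:**
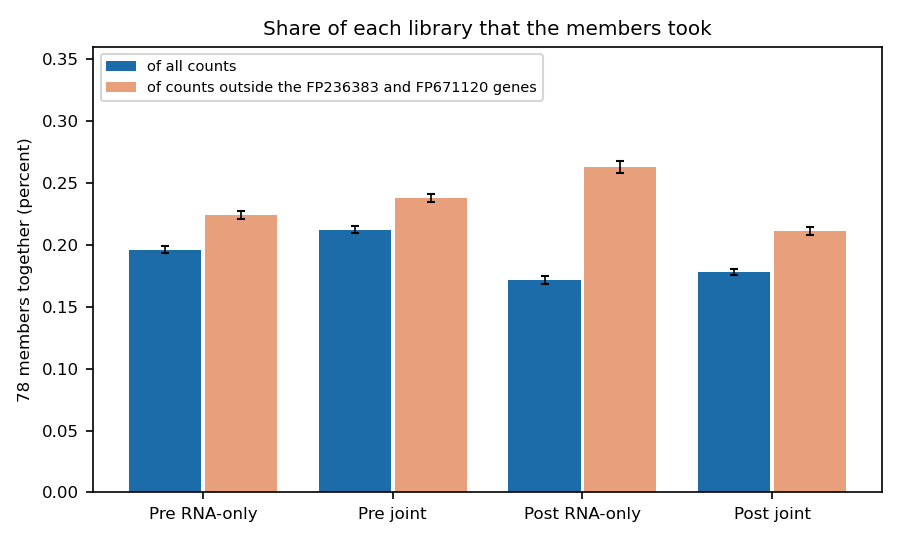
The vertical axis gives the percent of counts that the 78 members took together in each of the 4 libraries, as a share of all counts (blue) and of the counts outside the 6 clone-named genes (orange), with exact 95% binomial intervals as bars. Post RNA-only has the lowest blue bar, 0.171%, and the highest orange bar, 0.263%.

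The mean over the 4 libraries ran from 2.16 RPM for MRPL53 to 154 RPM for MRPS6, a range of 71.2-fold, with a median of 16.4 RPM. MRPS6, a small subunit protein with a bacterial counterpart, had 159 RPM in Pre RNA-only, 163 in Pre joint, 131 in Post RNA-only and 162 in Post joint. It also overlaps SLC5A3, counted separately at 101 RPM. MRPL42, a large subunit protein with no bacterial counterpart, came next with 106, 99.0, 82.7 and 98.0 RPM in the same order. MRPS27, a small subunit protein of the pentatricopeptide repeat family, had 94.5, 100.3, 70.0 and 89.6 RPM. In these 3 genes the Post RNA-only library was the lowest and the other 3 libraries lay close together.

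Among large subunit members with a bacterial counterpart, the most abundant by mean RPM were MRPL19 (67.0), MRPL1 (56.1), which forms the mobile L1 stalk, and MRPL3 (39.2). Among those without one they were MRPL42 (96.5), MRPL37 (30.7) and MRPS30 (28.5), which sits in the large subunit in spite of its symbol. In the small subunit MRPS6, MRPS28 (77.3) and MRPS9 (52.8) led the members with a bacterial counterpart, and MRPS27 (88.6), MRPS25 (82.3) and MRPS35 (36.8) those without one. Every subgroup therefore held genes that stood well above the median member.

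Per length the order was another. For this, mean RPM was divided by the length of the canonical mRNA in GENCODE release 44. The result was highest for MRPS6 (165 RPM per kb), MRPS28 (92.3), MRPL33 (69.4), MRPL1 (47.7) and MRPL20 (46.7). It was lowest for MRPS33 (2.19 RPM per kb), MRPS23 (2.90) and MRPL35 (3.03), and the median member had 12.4 RPM per kb. MRPL42, second by RPM, had 6.20 RPM per kb because its canonical mRNA is annotated as 15557 bases. The values per kb only rescale RPM by the annotated length. RNA was captured with a poly-T primer, and whether counts per transcript grow with mRNA length was not tested. On either scale the members spread over more than an order of magnitude.

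Over the 61 members averaging 10 RPM or more, mean RPM went up with the length of the gene, introns included (Spearman's rho 0.58), and little with the length of the mRNA (0.10). Here and below, gene length is the span of the canonical transcript with its introns. In 9801 other protein-coding genes the same rho were 0.44 and 0.31. By library, Pre joint had the highest RPM for 50 of the 78 members, whereas the lowest was Post joint for 41 and Post RNA-only for 32, among them all of the 10 most abundant members. The correlations above are across genes in the same 4 libraries, and genes are not independent replicates.

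**Figure D2:**
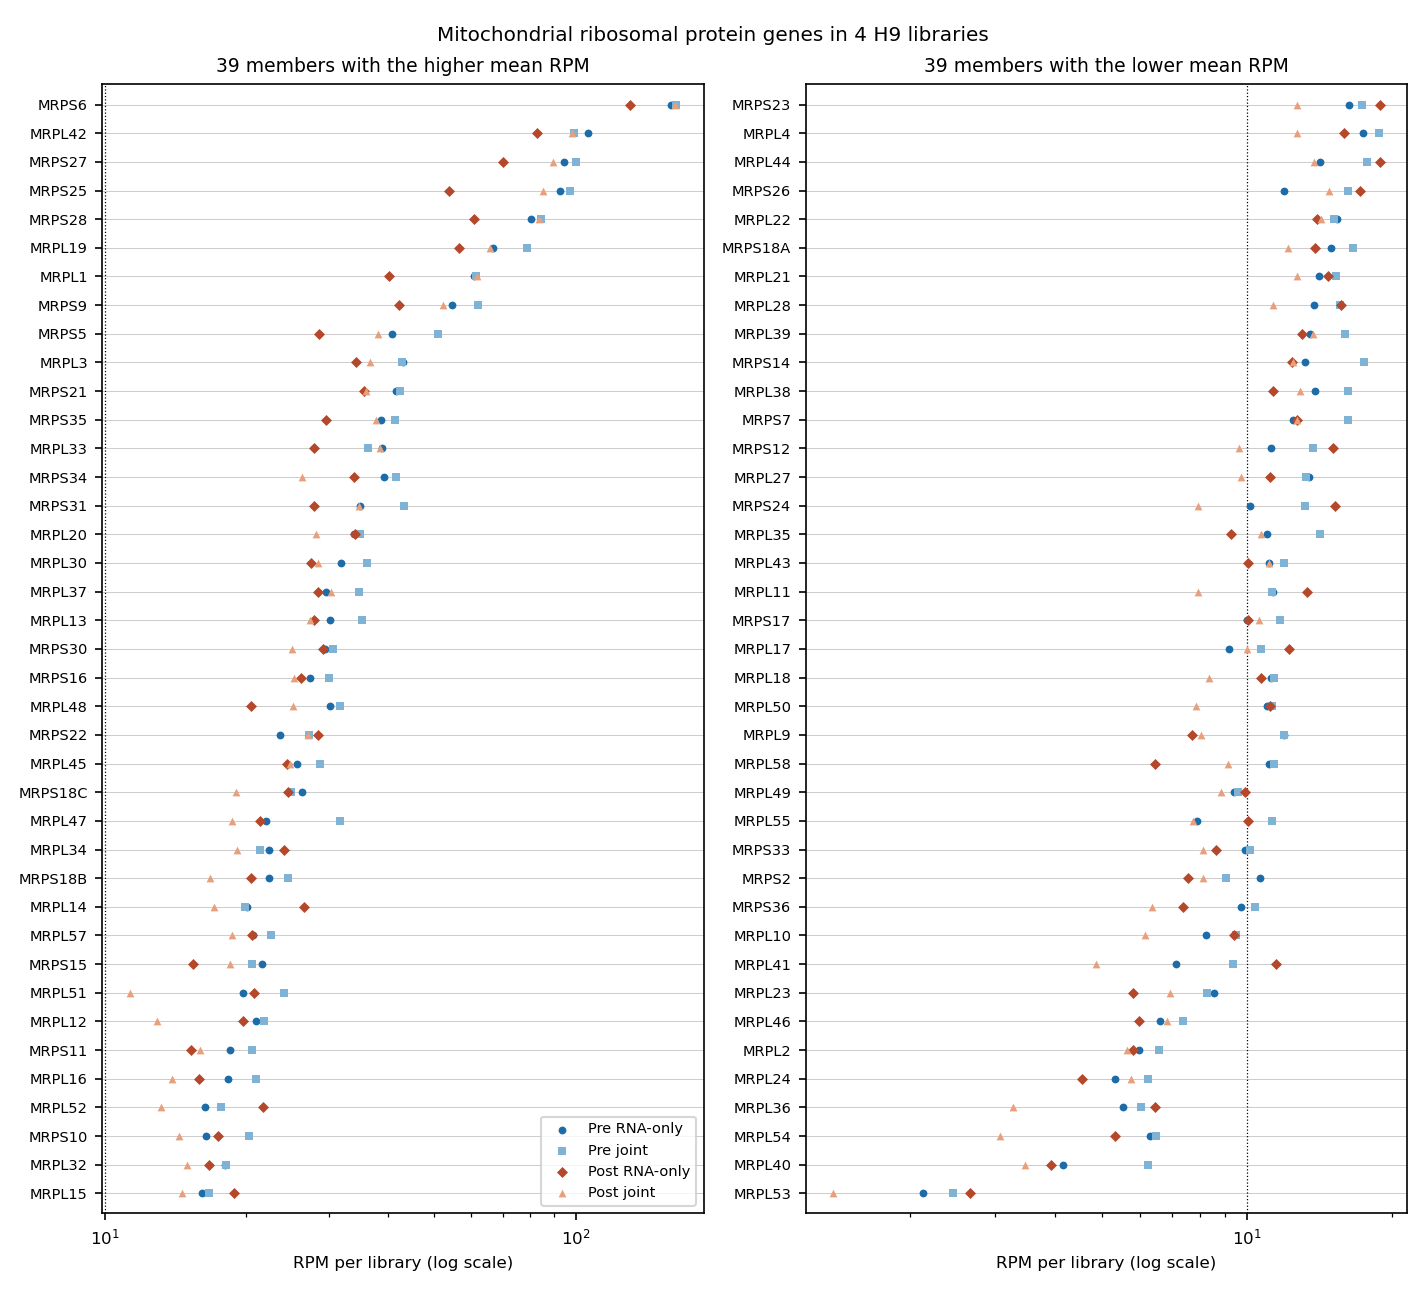
Each row is 1 of the 78 members, ordered by mean RPM, and each of its 4 symbols is the RPM of 1 library on a log scale; the dotted line marks 10 RPM. The red diamond of Post RNA-only is the leftmost symbol in 20 of the 39 rows on the left, and the orange triangle of Post joint in 23 of the 39 rows on the right.

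To compare libraries, the log2 ratio of RPM was taken after adding 1 RPM, which understates the change of low genes, and the median over the 11564 genes averaging 10 RPM or more was subtracted. That median was -0.44 for Post over Pre in the RNA-only libraries, -0.09 for Post over Pre in the joint libraries, 0.03 for joint over RNA-only in the Pre libraries and 0.38 in the Post libraries. All ratios below are such relative log2 ratios, and a gene was called by size where it was at least 1.5-fold apart. Their counting intervals were made from the counts without the added 1 RPM and shifted by the same median. In low genes the ratio can therefore lie off the middle of its interval. The 4 comparisons are made from 4 libraries, so each follows from the other 3. The 2 Post over Pre comparisons, called the RNA pair for the RNA-only libraries and the joint pair for the joint libraries, share no library, but each shares a library with each comparison of DNA profiling.

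In the RNA-only libraries, the members were higher in Post than in Pre relative to the other genes. The median over the 61 measured members was 0.34, with 55 above and 6 below the overall median, on either side of which 50% of all genes lie by construction. At least 1.5-fold higher were 12 members, or 12 of 61 against a background of 5.26% of all genes, and 0 were 1.5-fold lower (background 2.01%). None reached 2-fold, where 1.33% of all genes were higher and 0.0519% lower. The 95% counting interval lay above the median for 30 members, below it for 1 and across it for 30. Intervals were not counted over all genes, here or below, so these counts have no background beside them. In plain RPM, with no centring, the log2 ratio of the median member was -0.095, and with the 6 clone-named genes left out of the totals it was 0.32, so the direction in this pair depends on what the counts are divided by.

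The 4 members with the highest relative ratios in this pair were MRPS24, MRPS26, MRPS12 and MRPL52. MRPS24, counterpart of the bacterial S3 protein at the mRNA entry, had 10.1 RPM in Pre RNA-only and 15.2 in Post RNA-only, a relative log2 ratio of 0.98 (0.60 to 1.45). MRPS26, with no bacterial counterpart, had 11.9 and 17.1 RPM, a ratio of 0.92 (0.56 to 1.35). MRPS12, counterpart of the bacterial S12 protein at the decoding centre, had 11.2 and 15.1 RPM, a ratio of 0.84 (0.45 to 1.28). MRPL52, of the large subunit, followed, with 16.3 and 21.7 RPM and a ratio of 0.83 (0.51 to 1.19). All 4 had more RPM in Post even without centring. The other members called were MRPL11, MRPL14, MRPL15, MRPL17, MRPL28, MRPL44, MRPS22 and MRPS23. MRPL14 (0.83), MRPL44 (0.82) and MRPL17 (0.82) lay close behind MRPL52. Of the members called, 7 belong to the large subunit (37 measured) and 5 to the small one (24 measured).

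The lowest relative ratios belonged to abundant members. MRPS25 had 92.5 RPM in Pre RNA-only and 53.9 in Post RNA-only, a relative log2 ratio of -0.33 (-0.53 to -0.16), and was the single member whose interval lay below the median. It overlaps NR2C2, counted separately at 157 RPM. For MRPL1 the RPM were 60.9 and 40.2 and the ratio -0.15 (-0.38 to 0.05), for MRPL48 -0.10 (-0.43 to 0.18), and for MRPS5 -0.06 (-0.34 to 0.19), so the last 3 were not apart from the overall median beyond counting error.

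In the libraries that also profiled DNA, the members were on the other side, lower in Post than in Pre relative to the other genes. The median was -0.21, with 8 members above and 53 below the overall median. At least 1.5-fold lower were 3 of 61 (background 2.02%) and 0 were 1.5-fold higher (background 1.1%), and none reached 2-fold, where 0.156% of all genes were higher and 0.0951% lower. The counting interval lay below the median for 19 members, above it for 0 and across it for 42. After centring, the shift was therefore smaller than in the RNA pair. In plain RPM it was the larger, with a median of -0.30 against -0.095 in the RNA pair, both lower in Post. Most single genes were not apart from the overall median beyond counting error.

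The 3 members called were MRPL51, MRPL47 and MRPL12. MRPL51, a large subunit protein with no bacterial counterpart, had 24.0 RPM in Pre joint and 11.3 in Post joint, a relative log2 ratio of -0.93 (-1.33 to -0.66). MRPL47, counterpart of the bacterial L29 protein near the exit tunnel, had 31.6 and 18.6 RPM, a ratio of -0.64 (-0.94 to -0.40). MRPL12, the stalk protein that contacts translation factors, had 21.8 and 12.9 RPM, a ratio of -0.62 (-0.99 to -0.33). MRPS24 was next with 13.2 and 7.93 RPM and a ratio of -0.57 (-1.07 to -0.22), just short of 1.5-fold. MRPL51 overlaps NCAPD2 (109 RPM) and MRPL47 overlaps ACTL6A (43.5 RPM), so reads could be shared if counting ignored strand.

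At the other end, MRPL33 had 36.3 and 38.4 RPM, a relative log2 ratio of 0.17 (-0.04 to 0.39). MRPL1 had a ratio of 0.10 (-0.07 to 0.27), MRPS22 one of 0.09 (-0.17 to 0.34) and MRPS6 one of 0.08 (-0.02 to 0.19). All 4 intervals held 0, so no measured member was higher in Post beyond counting error in this pair.

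Set side by side, 49 of the 61 members were above the overall median in the RNA pair and below it in the joint pair, which is 80.3% against 25.6% of all genes. Both ratios were above the median for 6 members, MRPL17, MRPL22, MRPL42, MRPS22, MRPS28 and MRPS6 (24.4% of all genes), and below it for 4, MRPL48, MRPS15, MRPS25 and MRPS5 (24.4%). MRPL1 and MRPL33 were below in the RNA pair and above in the other (25.6% of all genes). No member was 1.5-fold higher in both pairs, nor 1.5-fold lower in both, where 0.571% and 0.0605% of all genes were.

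**Figure D3:**
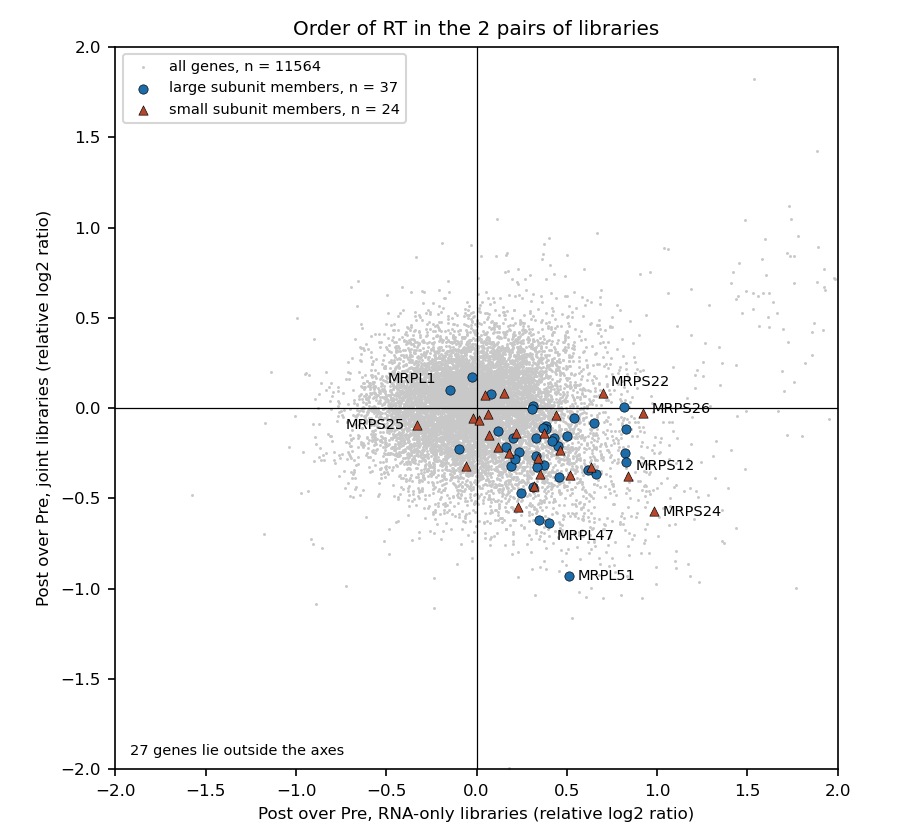
The horizontal axis is the relative log2 ratio of Post over Pre in the RNA-only libraries and the vertical axis the same ratio in the joint libraries, for all 11564 measured genes (grey) and the members of the large (blue circles) and small subunit (red triangles). Of the 61 members, 49 lie to the right of and below 0, with MRPS24 and MRPL51 farthest out, and MRPS25 and MRPL1 lie to the left of 0.

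The largest differences between the pairs were those of MRPL41, MRPS24, MRPL51 and MRPL36. MRPL41, a large subunit protein with no bacterial counterpart and the shortest gene of the family at 0.677 kb, had 7.14, 9.37, 11.5 and 4.86 RPM in Pre RNA-only, Pre joint, Post RNA-only and Post joint. Its ratios were 1.05 (0.62 to 1.62) and -0.73 (-1.39 to -0.33), a difference of 1.78. The difference was 1.55 for MRPS24, 1.44 for MRPL51 and 1.25 for MRPL36, whose counts were 52, 54, 41 and 33 in the same order. MRPL41 and MRPL36 had means under 10 RPM (8.21 and 5.32) and were not among the 61. Counting intervals lay on opposite sides of the median in the 2 pairs for 11 measured members, and their differences ran from 0.37 (MRPL19) to 1.55.

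DNA profiling was compared within each order of RT. In the Pre libraries the members were nearly level: the median was 0.09, with 48 above and 13 below the overall median (50% by construction), and 0 members were 1.5-fold apart, where 0.0605% of all genes were higher and 0.156% lower (at 2-fold, 0% and 0.0173%). The interval lay above the median for 6 members and below it for 0. The highest were MRPL47 with 22.0 RPM in RNA-only and 31.6 in joint, a relative log2 ratio of 0.48 (0.23 to 0.76), MRPS26 with 0.38 (0.05 to 0.78) and MRPS14 with 0.36 (0.03 to 0.73). The lowest were MRPL42 with -0.13 (-0.26 to 0.01), MRPL33 with -0.12 (-0.34 to 0.10) and MRPS18C with -0.10 (-0.37 to 0.17).

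In the Post libraries the members were lower where DNA was profiled too. The median was -0.45, with 5 above (MRPL1, MRPL33, MRPS25, MRPS28 and MRPS5) and 56 below. At least 1.5-fold lower were 22 of 61 (background 7.63%) and 2-fold lower 4 of 61 (background 2.32%), with 0 at least 1.5-fold higher (background 1.34%) or 2-fold higher (0.0432%). In plain RPM with no centring the median was -0.074, 6 members were at least 1.5-fold lower, and 2, MRPS25 (0.65) and MRPL1 (0.61), at least 1.5-fold higher. Shares over all genes were not computed in plain RPM. The interval lay below the median for 38 members and above it for 2. Of the 4 comparisons this one had the most members apart, and it holds the Post RNA-only library, in which the clone-named genes took 34.8% of the counts; the part of these genes in the difference was not tested.

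The 4 members past 2-fold were MRPS24, MRPL51, MRPL11 and MRPL52. MRPS24 had 15.2 RPM in Post RNA-only and 7.93 in Post joint, a relative log2 ratio of -1.24 (-1.76 to -0.88), and MRPL51 had 20.7 and 11.3 RPM, a ratio of -1.20 (-1.63 to -0.88). MRPL11, at the base of the stalk where translation factors act, had 13.3 and 7.93 RPM, a ratio of -1.06 (-1.59 to -0.67). MRPL52 had 21.7 and 13.2 RPM, a ratio of -1.05 (-1.45 to -0.74). In each of the 4 genes Post RNA-only was higher than Post joint also in plain RPM. In the other direction stood MRPS25 with 53.9 and 85.3 RPM, a ratio of 0.28 (0.10 to 0.47), MRPL1 with 0.23 (0.03 to 0.46) and MRPL33 with 0.07 (-0.17 to 0.35). Of these 3, only the interval of MRPL33 held 0.

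Both subunits behaved alike in direction. In the large subunit, with 37 measured members, the medians were 0.37 for Post over Pre in the RNA pair, -0.21 in the joint pair, 0.08 for DNA profiling in Pre and -0.56 in Post. In the small subunit, with 24, they were 0.27, -0.18, 0.12 and -0.37. The 14 large subunit members without a bacterial counterpart had 0.39 and -0.20 in the 2 Post over Pre pairs and the 23 with one 0.33 and -0.21. The 15 small subunit members with a counterpart had 0.34 and -0.23 and the 9 without one 0.23 and -0.10. No difference between these groups was tested.

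The 3 paralogues MRPS18A, MRPS18B and MRPS18C each occupy a place of their own, MRPS18A in the large subunit and the others in the small one. In Pre RNA-only, Pre joint, Post RNA-only and Post joint, MRPS18A had 14.9, 16.6, 13.8 and 12.2 RPM and MRPS18B 22.3, 24.6, 20.4 and 16.8. MRPS18C had 26.2, 24.9, 24.5 and 19.0 RPM. Their ratios for Post over Pre were 0.33, 0.32 and 0.34 in the RNA pair and -0.32, -0.43 and -0.28 in the joint pair. In the RNA pair the 3 genes were close to each other and to the family median of 0.34, whereas in the joint pair, where that median was -0.21, all 3 lay below it.

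The 17 members with a mean under 10 RPM were described apart. They were MRPL10 and MRPL2, in the stalk base and the core of the large subunit, MRPL9, MRPL23, MRPL24, MRPL36, MRPL40, MRPL41, MRPL46, MRPL49, MRPL53, MRPL54 and MRPL55, the peptidyl-tRNA hydrolase MRPL58, the small subunit genes MRPS2 and MRPS33, and MRPS36. MRPL53 was the lowest, with 2.13, 2.46, 2.67 and 1.39 RPM in Pre RNA-only, Pre joint, Post RNA-only and Post joint. MRPL9 lay just under the limit at 9.90 RPM, and MRPL50, at 10.3 RPM, just over it. Of the 17, 13 were above the overall median in the RNA pair (median 0.31) and 0 in the joint pair (median -0.40). For DNA profiling 14 were above in Pre and 1 in Post. The low members thus lay on the same sides as the measured ones. Their counting intervals were wide, and they excluded 0 for 5 of the 17 in the RNA pair and for 8 in the joint pair. MRPL58, for example, had -0.26 (-0.90 to 0.19) in the RNA pair.

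The mitoribosome has further subunits without an MRP symbol. DAP3, a GTP-binding protein of the small subunit, had 135, 141, 67.2 and 112 RPM in the order given above, and relative log2 ratios of -0.56 in the RNA pair and -0.23 in the joint pair. PTCD3, a pentatricopeptide repeat protein of the small subunit, had 0.01 and -0.13, AURKAIP1 0.38 and -0.55, and GADD45GIP1, of the large subunit, 0.51 and -0.36. CHCHD1, a small subunit protein with a mean of 9.64 RPM, had 0.48 and -0.30. DAP3 was lower in the RNA pair than any of the 61 measured members, of which MRPS25 was the lowest at -0.33.

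Other nuclear genes of mitochondrial translation had medians near 0. Of 20 measured mitoribosome assembly genes, 1 was 1.5-fold higher (ERAL1, a chaperone of the small subunit rRNA, at 0.66) and 0 lower in the RNA pair, with a median of -0.04, and the medians in the joint pair and for DNA profiling in Pre and Post were -0.07, -0.01 and -0.01. METTL15, a methyltransferase of the small subunit rRNA and the most abundant of them at 162 RPM, had ratios of 0.12 and 0.22 in the 2 Post over Pre pairs, and MALSU1 had -0.03 and -0.32. Of 15 translation factors and mRNA-binding proteins, 1 was 1.5-fold higher in the RNA pair and 0 lower (median 0.03), and 0 in the joint pair (median -0.06). That gene was TUFM, the mitochondrial elongation factor Tu, with 31.5 and 47.4 RPM and a ratio of 1.02, whereas LRPPRC, which stabilises mitochondrial mRNAs and was the most abundant at 290 RPM, had 0.20. Of 13 measured mitochondrial aminoacyl-tRNA synthetases, which charge the tRNAs, 0 were 1.5-fold higher and 1 lower in the RNA pair (TARS2 at -0.68; median -0.10), and the median in the joint pair was 0.02. FARS2, the most abundant at 157 RPM, had -0.20 and 0.15.

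The mRNAs that the mitoribosome translates, which are transcribed in mitochondria, had medians on the same sides of the overall median as the members. The 13 mitochondrially encoded mRNAs had a median of 0.23 in the RNA pair, with 10 above the overall median. The 3 below it were MT-ND5 (-0.27), MT-ND6 (-0.26) and MT-ND4L (-0.02). At least 1.5-fold higher were 2 of 13, MT-ND1 (0.69) and MT-CO2 (0.80), against a background of 5.26%. In the joint pair the median was -0.41, and all 13 were below the overall median. At least 1.5-fold lower were 5 of 13 (background 2.02%), MT-ND2, MT-ND4L, MT-ND6, MT-CO1 and MT-ATP8, at -0.62 to -0.76. The medians were 0.14 and -0.62 for DNA profiling in Pre and Post. MT-CO1, the core subunit of cytochrome c oxidase, had 1596, 1756, 1309 and 1070 RPM in Pre RNA-only, Pre joint, Post RNA-only and Post joint. The medians of the 79 proteins of the cytosolic ribosome lay on the same sides as the members and farther out, at 0.84, -0.55, 0.18 and -1.23. In the RNA pair 63 of the 79 were at least 1.5-fold higher, against 5.26% of all genes. These lists are described by counts and medians, and no difference between them and the members was tested.

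**Figure D4:**
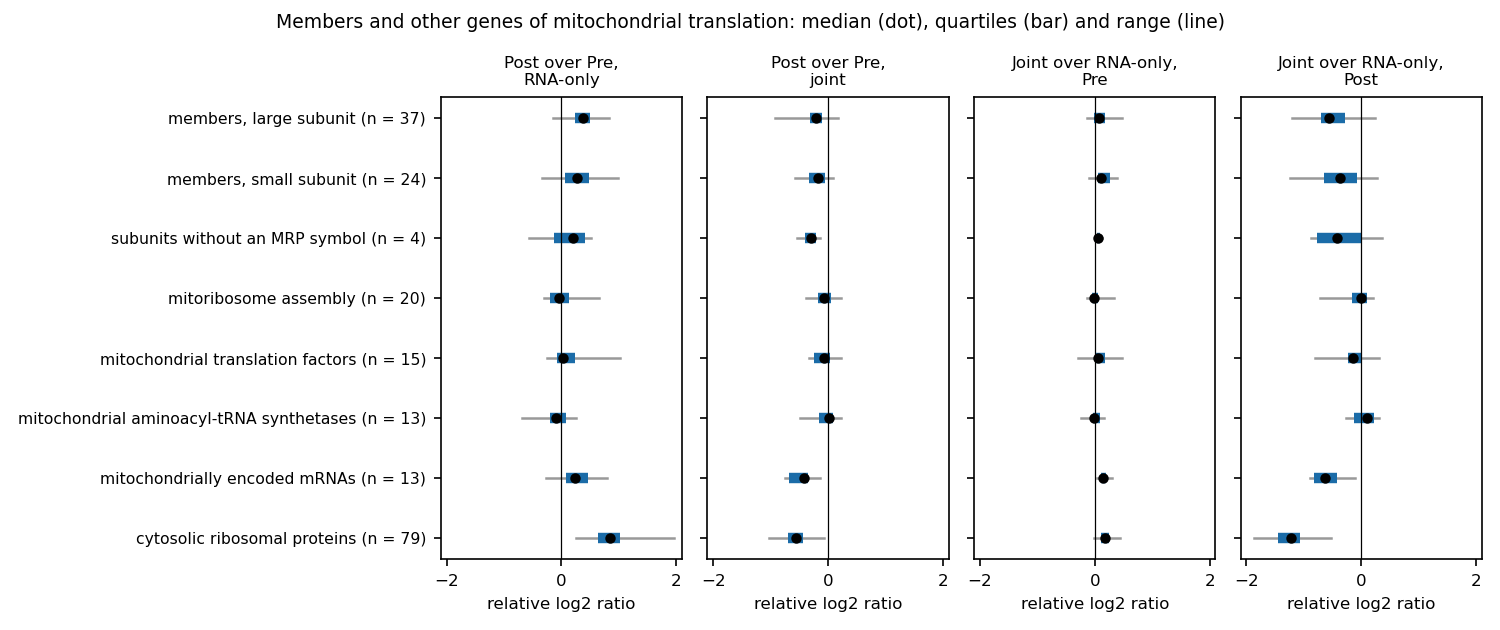
Each panel is 1 of the 4 comparisons and each row a list of measured genes, with the relative log2 ratio on the horizontal axis; dots are medians, bars the range between the quartiles and lines the whole range. The members of both subunits lie right of 0 in the first panel (medians 0.37 and 0.27) and left of it in the second and the last, while assembly genes and aminoacyl-tRNA synthetases stay near 0.

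Gene length varied with these ratios. The canonical transcripts of the members span 0.677 to 111.5 kb with introns, and the median is 8.41 kb. Whole annotated genes can be longer. Those of MRPS22 and MRPL33 span 354692 and 216371 bases, against 13.1 and 8.0 kb for their canonical transcripts, by which they are classed here. The limits of 10 and 30 kb below were chosen after the values had been seen. The 28 measured members under 10 kb had medians of 0.40 in the RNA pair, -0.26 in the joint pair and -0.65 for DNA profiling in Post. The 1206 other protein-coding genes of that length had 0.35, -0.24 and -0.50. The short members were thus close to other short genes in the 2 Post over Pre pairs.

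For the 21 members of 10 to 30 kb the medians were 0.38, -0.16 and -0.37, and for 2592 other protein-coding genes of that length 0.06, -0.10 and -0.15. In this class the members of the RNA pair lay farther from 0 than the other genes did, with 20 of 21 above the overall median against 1545 of 2592. The 12 members over 30 kb had 0.07, -0.10 and -0.07, and 6003 other genes -0.07, 0.05 and 0.09. Those 12 include MRPS28, MRPS27, MRPL1, MRPS6 and MRPL42, the long and abundant members named above, and 12 genes make a thin class. The part of gene length in the members' ratios was not tested.

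Over the 61 members Spearman's rho between gene length and the relative ratio was -0.58 in the RNA pair, 0.34 in the joint pair and 0.64 for DNA profiling in Post. With mRNA length the rho were -0.15, 0.02 and 0.23. With mean RPM, which itself went up with gene length, they were -0.59, 0.36 and 0.54. Level and length therefore cannot be told apart among the members. In 9801 other protein-coding genes the rho with gene length were -0.36, 0.47 and 0.57. Their rho with mRNA length were -0.20, 0.31 and 0.34, and with mean RPM -0.19, 0.02 and 0.20. All points share the same libraries, and these values are descriptions.

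**Figure D5:**
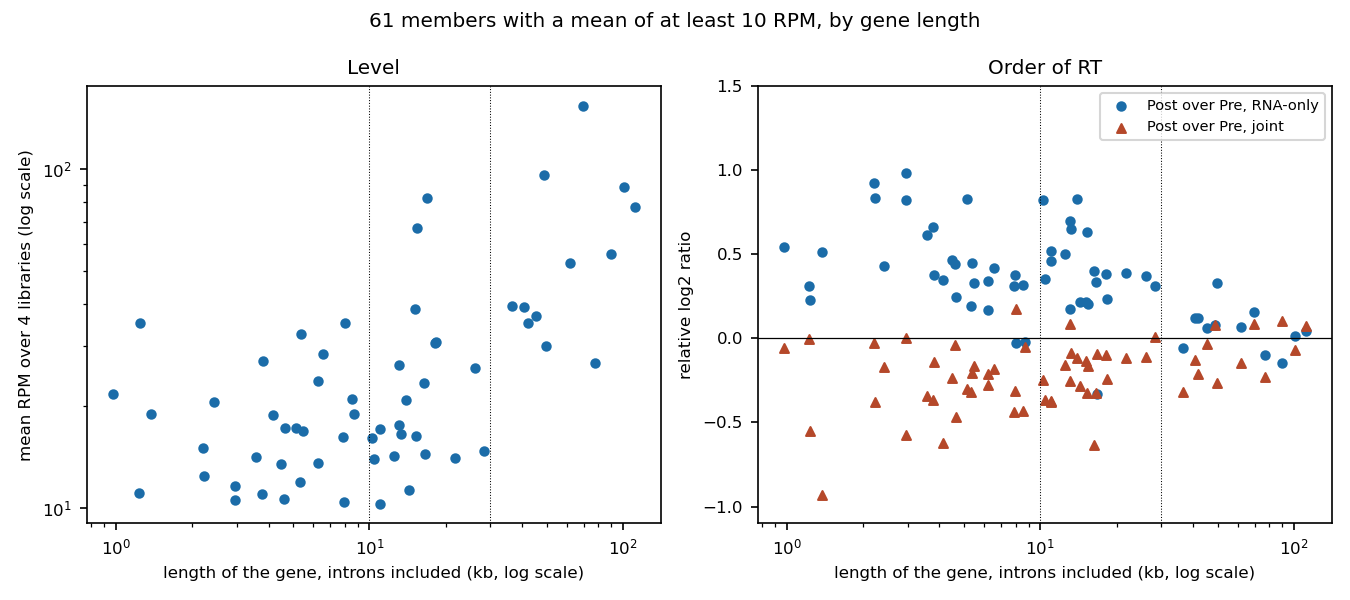
The horizontal axes give gene length, as the span of the canonical transcript with introns (kb, log scale), for the 61 measured members, with dotted lines at 10 and 30 kb. The left panel shows mean RPM (log scale), and the right panel the relative log2 ratio of Post over Pre in the RNA-only (blue circles) and joint libraries (red triangles), with medians of 0.40 and -0.26 for the 28 members under 10 kb and of 0.07 and -0.10 for the 12 over 30 kb. Single genes depart from this, such as MRPL13 over 30 kb (0.33 and -0.27) and MRPS15 under 10 kb (-0.02 and -0.05).

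The ratios were also set out by the promoter letters, with no test. The 24 measured members with CCGGAAG had medians of 0.34 in the RNA pair and -0.26 in the joint pair, and the 32 without it 0.35 and -0.16. With AAGATGGC the medians of 18 members were 0.41 and -0.27, and without it those of 38 members were 0.31 and -0.16. The sequences shown cannot tell whether the letters go with the ratios, since MRPL51 and MRPS12 were chosen for their large differences. Among the members with the largest differences between the pairs, MRPL41 had neither set of letters in its window. MRPS24 and MRPL36 had AAGATGGC only, and MRPL51 had both.

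A number of members start close to another gene. For 19 of the 78, the start of a protein-coding gene on the opposite strand lay within 1000 bp, and in 10 of these pairs both genes had at least 10 RPM. In those 10 the median of the members was 0.39 in the RNA pair and that of the neighbours -0.05. The member was the higher of the 2 in 9 pairs. Such neighbours were sought for the members only, so the 19 of 78 and the 9 of 10 have no background beside them. MRPS12 and SARS2, the mitochondrial seryl-tRNA synthetase, start 181 bp apart, and their ratios were 0.84 and -0.14. MRPL50 and ZNF189 start 233 bp apart and had 0.46 and -0.51. In the joint pair the medians were -0.25 and -0.20, and for DNA profiling in Post -0.54 and -0.13. These 2 pairs have the widest differences of the 10. The closest in the RNA pair were MRPL18 and TCP1, with 0.38 and 0.36, and MRPL47 and NDUFB5, with 0.40 and 0.37. Between these lay MRPL21 and IGHMBP2 (0.50 and -0.03), MRPL43 and TWNK (0.31 and -0.29), and MRPL57 and SKA3 (0.43 and -0.08). So did MRPL30 and MITD1 (0.24 and -0.23) and MRPL13 and MTBP (0.33 and 0.08). The neighbour was the higher only for MRPL32 and PSMA2, with 0.33 and 0.85.

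In 1 case both genes of such a pair were members. MRPL46 and MRPS11 start 63 bp apart on chromosome 15, and their RNA pair ratios were 0.31 and 0.18. The RPM of MRPL46 were 6.61, 7.37, 5.97 and 6.84 in Pre RNA-only, Pre joint, Post RNA-only and Post joint, and those of MRPS11 averaged 17.5.

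The counting of overlapping genes limits single values. Of the 78 members 29 overlap another gene of the tables, and neither the annotation nor the use of strand in counting is given in the sources used here. Over the 38 measured members that overlap no other counted gene, a choice made after seeing the data, the medians of the 4 comparisons were 0.32, -0.21, 0.08 and -0.52, against 0.34, -0.21, 0.09 and -0.45 over all 61. The directions of the family were therefore the same without the overlapping genes. Processed pseudogenes of ribosomal protein genes can also share reads with their parents, and how such reads were assigned is not given in the sources used here.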

How the data were processed

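Poly(A) RNA from H9 nuclei was sequenced in 4 libraries, 1 per condition. The deposited values are whole-number counts for each gene symbol, made by the authors from deduplicated reads, with no normalization. The submitters' processing notes name Trim Galore 0.6.10, Bowtie 1.3.1, Bowtie2 2.5.3, STAR 2.7.11b, SAMtools and GRCh38. The annotation and the strand setting of the counting are not given in the sources used here, and the paper's methods, written for single cells, mark duplicates of RNA by mapping position and UMI. The column of each library was identified from its label, and 60 other barcode columns were not used.

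Counts were divided by the library total (RPM). Ratios were log2 of RPM plus 1, centred on the median of the 11564 genes averaging 10 RPM or more. Genes were called by size at 1.5-fold. Intervals are exact 95% intervals for counts, and those of ratios leave out the added 1 RPM and are shifted by the same median. The members and all gene lists were chosen with earlier results of these data known. Members named are those under 10 RPM, the 3 most abundant of each of 4 subgroups, the 4 highest and 4 lowest ratios of each Post over Pre pair, the 3 highest and 3 lowest of each comparison of DNA profiling, the 4 with the largest difference between pairs, and the MRPS18 paralogues; of other lists, up to 4 of the most abundant genes. MRPL17, MRPL22, MRPS15, MRPL20, MRPS10, MRPS34, MRPS11, MRPL35, MRPS23, MRPL50, TUFM and the other genes called or set beside members are outside it, chosen once the values were known. Gene places came from GENCODE release 44, matched for 78 of 78 members, and promoters from RefSeq on GRCh38.p14.

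The ratio and calling steps, and the additive models of edgeR and DESeq2 that served as alternatives, were tested on simulated data. Other scalings, filters, pseudocounts, folds and thinned counts were tried. The software was Python 3.11.15 (pandas 2.3.3, scipy 1.17.1, numpy 2.4.6, matplotlib 3.10.9) and R 4.3.3 with DESeq2 1.42.0, limma 3.58.1 and edgeR 4.0.16.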

Additional observations from a re-analysis of the deposited data

Results flagged for a closer look

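The median of the 61 measured members was 0.55 higher on the relative log2 scale in the RNA pair (0.34) than in the joint pair (-0.21) for Post over Pre, with opposite directions in the 2 pairs. In plain RPM with no centring both medians were negative, -0.095 in the RNA pair and -0.30 in the joint pair. With 1 library per condition this difference was not tested. The 2 comparisons of DNA profiling, with medians of 0.09 in Pre and -0.45 in Post, are made from the same 4 libraries and are no separate evidence of it.

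For 11 members the counting interval lay above the overall median in the RNA pair and below it in the joint pair, and their differences were not tested between conditions either. The share of all genes with such intervals was not counted. The difference was 1.55 for MRPS24, 1.44 for MRPL51, 1.22 for MRPS12, 1.04 for MRPL47, 0.96 for MRPL12, 0.96 for MRPS23, 0.96 for MRPL28, 0.89 for MRPS10, 0.62 for MRPS18C, 0.59 for MRPL13 and 0.37 for MRPL19.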

How the results depend on the processing

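No paired analysis was possible because no condition has numbered replicates. The additive models below set Post against Pre with DNA profiling as a term, and without 1 library they would have no residual degree of freedom. Of 82 alternative values, 56 stayed within counting error or 1.5 times the count, 24 moved and 2 reversed. Both reversals came with plain RPM and no centring in the RNA pair, where the members' median became -0.095 and 2 members were 1.5-fold apart, both of them lower. Plain RPM also moved the median to -0.30 in the joint pair and -0.074 for DNA profiling in Post, and the members called to 5, all lower, and to 8, of which 6 were lower and 2 higher. The counts in plain RPM have no share over all genes beside them. With centring or another scaling no median changed direction. A filter of 1 RPM moved the medians of the Post over Pre pairs to 0.26 and -0.25, and no filter to 0.12 and -0.30, with -0.35 for DNA profiling in Post. A pseudocount of 5 RPM gave 0.30, -0.16 and -0.39, thinning gave 0.14 for DNA profiling in Pre, and members that overlap no other gene gave -0.52 for DNA profiling in Post. In the joint pair the members 1.5-fold apart were 9 with a filter of 1 RPM, 10 with none and 1 with a pseudocount of 5 RPM. At 2-fold 0 members were apart in the RNA pair, 0 in the joint pair and 4 for DNA profiling in Post. Without the clone-named genes in the total the shares were 0.224%, 0.238%, 0.263% and 0.211%. The cause of these shifts was not tested. The additive models, with 1 residual degree of freedom, called 0 members for the order of RT: edgeR called 2 of 11564 genes and DESeq2 26, and 0 members had an unadjusted p under 0.05 by either tool. These models fit 1 effect of the order to both pairs and have no term for a difference between the pairs. Opposite directions in the pairs, as in 49 of the 61 members, go into the residual. The 0 calls therefore cannot decide whether the order altered the members within a pair. With as few as 14 counts, only large differences could be seen in the lowest members.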
